A study of Arabidopsis thaliana with 4 samples.

Results

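The epidermal hair cell fate regulators are 10 genes that decide in the Arabidopsis root whether an epidermal cell forms a hair (trichoblast) or stays hairless (atrichoblast). They were chosen by gene identifier, 10 of the 32833 genes counted in the files, and all 10 were detected in each of the 4 libraries. Root tips of 5 mm were taken from wild-type Col-0 plants on control medium (control replicates 1 and 2) or on medium with sorbitol, which imposes osmotic stress (stress replicates 1 and 2), and RNA and accessible chromatin were counted in the same nuclei. All groups share the Col-0 genotype. The study calls the replicates biological, but the labels do not say whether they were grown apart, so p-values measure the spread between these libraries, which may be partly technical. After limits on RNA counts per barcode, 3213 and 6133 nuclei were kept in control replicates 1 and 2 and 7687 and 6499 in stress replicates 1 and 2. RNA counts per library ran from 17567594 to 37717096.

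In the epidermis of the root, position sets the fate. A cell over the cleft between cortical cells receives a signal through the receptor-like kinase SCM and forms a hair, whereas its neighbours do not. In the hairless cell the R2R3 MYB proteins WER and MYB23, the bHLH proteins GL3 and EGL3 and the WD40 protein TTG1 form a complex that switches on GL2, a homeodomain protein that represses hair genes. The same complex switches on the small R3 MYB genes CPC, TRY and ETC1, whose products lack an activation domain, move to neighbouring cells, and displace WER there. CPC RNA is known from cells that do not themselves form a hair. GL3 and EGL3 RNA is known from the hair cell file.

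Some libraries stood apart. In control replicate 1, 53.9% of the kept nuclei failed the limits that the study set on peak counts, against 14.2% to 22.3% in the other libraries, and its nuclei had a median of 679 peak counts. Of 18 clusters, 4 took over 80% of their nuclei from 1 library. They included cluster 2, led by heat-shock genes, with 318 of its 321 nuclei from control replicate 1, and cluster 17, led by AOC1 and AOC2, with 755 of its 761 nuclei from control replicate 2. The control libraries also differed more from each other than the stress libraries did, with a spread of log2 levels over 17836 genes of 0.301 (SD) in control and 0.0667 in stress. There were 320 barcode names found in more than 1 library.

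The stretches of 300 bases before the starts of GL2, MYB23 and CPC are shown because they carry the accessible regions at the output gene and at genes the complex is known to bind, described further on. They were read 5′ to 3′ on the strand of the gene from TAIR10.1, GL2 from chr1:30036656-30036955 (plus strand), MYB23 from chr5:16127425-16127724 (plus strand) and CPC from chr2:19050370-19050669 (minus strand). Capitals mark the core AACNG, to which R2R3 MYB proteins can bind, found on either strand, so that CNGTT is the same motif on the other strand.
GL2: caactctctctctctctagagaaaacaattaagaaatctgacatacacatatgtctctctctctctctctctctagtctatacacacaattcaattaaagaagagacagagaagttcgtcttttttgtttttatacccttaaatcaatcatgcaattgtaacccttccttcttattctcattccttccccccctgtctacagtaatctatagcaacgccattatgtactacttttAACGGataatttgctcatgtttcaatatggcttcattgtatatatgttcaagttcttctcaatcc
MYB23: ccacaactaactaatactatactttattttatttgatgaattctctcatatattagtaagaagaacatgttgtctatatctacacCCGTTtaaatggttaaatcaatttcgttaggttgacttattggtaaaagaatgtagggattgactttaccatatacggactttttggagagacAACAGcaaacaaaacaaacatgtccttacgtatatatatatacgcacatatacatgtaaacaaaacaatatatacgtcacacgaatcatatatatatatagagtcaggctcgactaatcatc
CPC: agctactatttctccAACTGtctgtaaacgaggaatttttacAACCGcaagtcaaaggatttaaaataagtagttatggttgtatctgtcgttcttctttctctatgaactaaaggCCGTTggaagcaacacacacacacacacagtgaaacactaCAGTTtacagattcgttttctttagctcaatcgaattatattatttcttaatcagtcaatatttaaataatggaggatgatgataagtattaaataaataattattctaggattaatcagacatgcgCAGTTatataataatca
The core was found 1 time before GL2, 2 times before MYB23 and 5 times before CPC. Of 27443 such windows before protein-coding genes, 76.0% held at least 1, with a median of 1 and an upper quartile of 3. The E-box CANNTG, a motif of bHLH proteins, was found 2 times before GL2, not before MYB23 and 1 time before CPC, where it overlapped 1 of the 5 cores, and 61.9% of all windows held it. The L1 box TAAATGTA, a motif of the GL2 family, was in none of the 3 windows and in 3.71% of all. No other annotated gene reached into these 3 windows. A match is a stretch of letters and not a measured site.

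The first comparison asked where in the root the regulators were expressed. Nuclei were clustered without the 10 regulators and without 24 related genes, so that a level of a regulator did not shape the clusters, and 9 classes could be named from marker genes. The atrichoblast-like class (clusters 0 and 2) held 2199 nuclei, 874, 582, 425 and 318 in control replicates 1 and 2 and stress replicates 1 and 2. The trichoblast-like class (cluster 13) held 875 nuclei, 161, 124, 320 and 270 in the same order. The marker lists gave the classes their names and were not left out of the clustering. Their levels therefore describe the classes and do not test them. Summed over 15 trichoblast markers, the level ran from 9331 to 16249 CPM (RNA counts scaled by the total of the class in that library) in trichoblast-like and from 410.4 to 652.8 in atrichoblast-like nuclei. The 15 atrichoblast markers separated them less, at 1358 to 1628 CPM against 865.4 to 1178 CPM, and 5 of the 15 passed the naming rule in cluster 0 and 3 in cluster 2. The xylem-like class (cluster 1, 1127 nuclei) was named on only 3 of 13 xylem markers. In a finer clustering (resolution 1.0) only 117 nuclei were named xylem-like, on 12 of 13 markers. The name may therefore not hold for most of cluster 1. Other nuclei, 14391 of 23532, lay in clusters without a name.

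Taken within a library, 6 of 8 regulators tested were higher in atrichoblast-like than in trichoblast-like nuclei and none was lower, where 20% of 14403 genes tested were called higher and 24.3% lower (44.4% in all; edgeR quasi-likelihood test on 8 sums with the library as a term, Benjamini-Hochberg adjusted p under 0.05). The 6 are GL2, TRY, MYB23, WER, EGL3 and CPC. The median difference was 1.66 on the log2 scale over the 8 regulators and -0.03 over all genes tested. Since genes that define such clusters differ by construction, only the regulators and the related genes left out of the clustering are described here.

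The output gene GL2 (AT1G79840, chromosome 1, 30036956 to 30041440) showed the largest difference of the 8. Its level in atrichoblast-like nuclei was 31.8, 14.8, 26.2 and 44.4 CPM in control replicates 1 and 2 and stress replicates 1 and 2, and in trichoblast-like nuclei it was 5.23, 1.19, 5.46 and 8.03 CPM. Every atrichoblast-like value lay above every trichoblast-like one, and the difference was 2.51 ± 0.25 on the log2 scale (SE, 4 libraries, adjusted p = 1.15e-05). The trichoblast-like mean, 4.98 CPM, lay among the means of the cortex-like, endodermis-like, xylem-like and dividing-like classes, which ran from 3.56 to 5.07 CPM. Of all GL2 counts, 47.4% came from atrichoblast-like nuclei. GL2 overlaps AT1G79850 on the other strand by 198 bases and the lncRNA AT1G09927 on its own strand by 155 bases, so that some of its counts could be of those genes.

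The activators followed. WER (AT5G14750) reached 48.6, 26.9, 53.5 and 61.3 CPM in atrichoblast-like and 12.6, 2.38, 17.3 and 17.1 CPM in trichoblast-like nuclei, a difference of 1.94 ± 0.22 (adjusted p = 3.95e-05). MYB23 (AT5G40330), a close relative of WER that WER itself switches on, reached 29.3, 18.2, 23.0 and 20.1 CPM against 6.28, 1.19, 4.55 and 8.03 CPM, a difference of 2.09 ± 0.30 (adjusted p = 0.0002). For neither gene did the classes overlap. They differed outside the epidermal pair. MYB23 was at 4.01 to 9.87 CPM on average in the other classes, and its lowest atrichoblast-like library lay above every library of those, while WER was at 26.7 ± 4.2 CPM (SD, n = 4 libraries) in dividing-like nuclei, a range that overlapped the atrichoblast-like one.

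**Figure D1:**
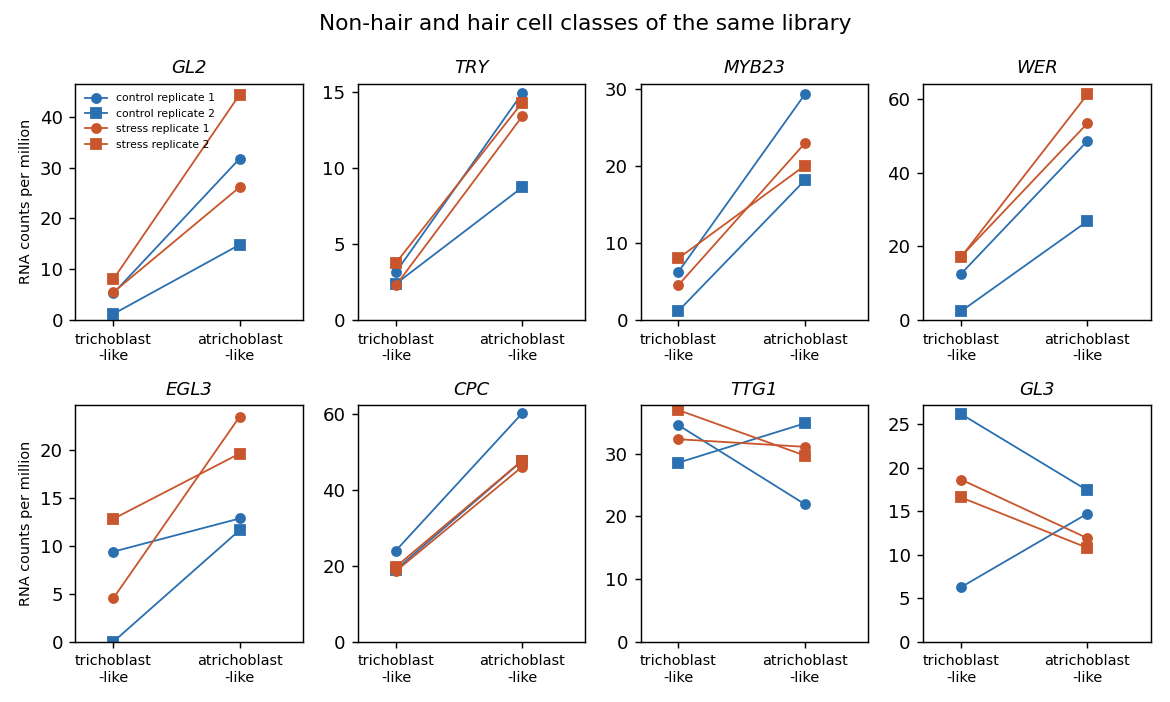
Level in CPM of RNA counts (linear axes from 0) of the 8 regulators tested, in trichoblast-like and atrichoblast-like nuclei of the same library, joined by a line (blue control, red stress, circle replicate 1, square replicate 2). GL2, TRY, MYB23, WER, EGL3 and CPC rise towards atrichoblast-like nuclei in 4 of 4 libraries, while TTG1 and GL3 do so in 1 of 4.

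Of the small R3 MYB genes, whose proteins act in the hair cell, the RNA was higher in atrichoblast-like nuclei for both that could be tested. CPC (AT2G46410) was at 60.3, 47.8, 46.2 and 47.8 CPM against 24.1, 19.0, 18.7 and 19.8 CPM, a difference of 1.30 ± 0.17 (adjusted p = 0.0001). TRY (AT5G53200) was at 14.9, 8.71, 13.4 and 14.3 CPM against 3.14, 2.38, 2.27 and 3.75 CPM, a difference of 2.18 ± 0.31 (adjusted p = 0.000203). The sets of 4 values stayed apart for both. The trichoblast-like values of TRY rest on 3, 2, 5 and 7 counts. ETC1 (AT1G01380) gave 21, 5, 12 and 12 counts in atrichoblast-like and 0, 0, 3 and 5 in trichoblast-like nuclei, too few to pass the filter.

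The partners of the complex differed among themselves, and of the 3 only EGL3 was called higher in atrichoblast-like nuclei. EGL3 (AT1G63650) was at 12.9, 11.7, 23.5 and 19.7 CPM in atrichoblast-like and 9.42, 0, 4.55 and 12.9 CPM in trichoblast-like nuclei, a difference of 1.39 ± 0.42 (adjusted p = 0.0172), and without stress replicate 1 it was 1.01 (adjusted p = 0.0607). For GL3 (AT5G41315) the difference was -0.30 ± 0.27 (adjusted p = 0.392), from 14.7, 17.4, 11.9 and 10.8 CPM against 6.28, 26.2, 18.7 and 16.6 CPM. TTG1 (AT5G24520) was at 21.9, 34.8, 31.1 and 29.7 CPM against 34.5, 28.6, 32.3 and 36.9 CPM, a difference of -0.19 ± 0.20 (adjusted p = 0.469). Both GL3 and TTG1 were higher in atrichoblast-like nuclei in only 1 of 4 libraries, and neither passed the test. GL3 was called lower in atrichoblast-like nuclei without control replicate 1 (-0.60, adjusted p = 0.0444) and with nuclei limited on RNA and peak counts and clustered anew (-0.72, adjusted p = 0.0446). SCM (AT1G11130) was too low to test in this pair, with 4 to 11 counts per library in atrichoblast-like and 0 to 14 in trichoblast-like nuclei.

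Genes up- and downstream of the complex were read in the same fit. Of 18 other fate pathway genes, 10 were tested, 2 of them higher in atrichoblast-like nuclei and 3 lower. Such counts are near the shares over all genes tested in this fit, 20% higher and 24.3% lower. Higher were TTG2, a WRKY factor that the complex switches on (2.83 ± 0.39, 4 of 4 libraries), and MYC1, another bHLH partner (1.04 ± 0.26, 4 of 4 libraries). Lower were the zinc finger genes ZFP5, an activator of CPC (-1.40 ± 0.31), ZFP6 (-0.45 ± 0.17), and JKD, which acts from the cortex on the epidermal pattern (-0.81 ± 0.21). Adjusted p-values of these 5 lay between 0.00014 and 0.0445. All 6 hair bHLH genes, several of which GL2 is known to hold down, were tested. RSL2, at 75.1 to 206.2 CPM in trichoblast-like and 4.24 to 6.48 CPM in atrichoblast-like nuclei, was lower in the latter by a log2 difference of -4.56 ± 0.26 (adjusted p = 1.95e-07), and RSL4 by -2.96 ± 0.24 (adjusted p = 2.15e-06). LRL1 was lower as well (-0.61 ± 0.15), while LRL2 (1.47 ± 0.22) and RSL1 (1.47 ± 0.36) were higher, and RHD6, which starts hair formation, was at 0.17 ± 0.17 (adjusted p = 0.419).

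Over the 6 classes with enough nuclei in every library, the regulators took different orders. GL2, MYB23 and TRY were highest in atrichoblast-like nuclei, at 29.3 ± 12.3, 22.6 ± 4.9 and 12.8 ± 2.8 CPM (SD, n = 4 libraries), and for each the range over libraries did not overlap that of the next class. The order of the other 5 classes could not be told for these genes, as each range overlapped the next. WER (47.6 ± 14.8 CPM), CPC (50.5 ± 6.6 CPM), EGL3 (16.9 ± 5.6 CPM) and ETC1 (3.07 ± 1.55 CPM) were highest in the same class, but their ranges overlapped that of the class after it, which was dividing-like for WER, cortex-like for CPC and xylem-like for EGL3 and ETC1. The xylem-like values of control replicate 2 rest on 25 nuclei, and that class is weakly named.

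SCM went another way. In dividing-like nuclei it was at 14.9, 20.02, 16.9 and 22.7 CPM in control replicates 1 and 2 and stress replicates 1 and 2, above every value in the other 5 classes, where the means ran from 1.67 to 3.53 CPM. The lowest mean was that of atrichoblast-like nuclei. GL3 was alike in trichoblast-like, dividing-like and atrichoblast-like nuclei, at 16.9 ± 8.2, 16.7 ± 3.5 and 13.7 ± 3.0 CPM with overlapping ranges, and all atrichoblast-like values lay above those of xylem-like nuclei, the next class at 5.99 ± 4.12 CPM, but the cortex-like value of control replicate 2, 11.6 CPM, reached into the atrichoblast-like range. TTG1 was the most even of the 10, with means from 24.5 CPM in dividing-like to 33.1 CPM in trichoblast-like nuclei and overlapping ranges throughout.

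**Figure D2:**
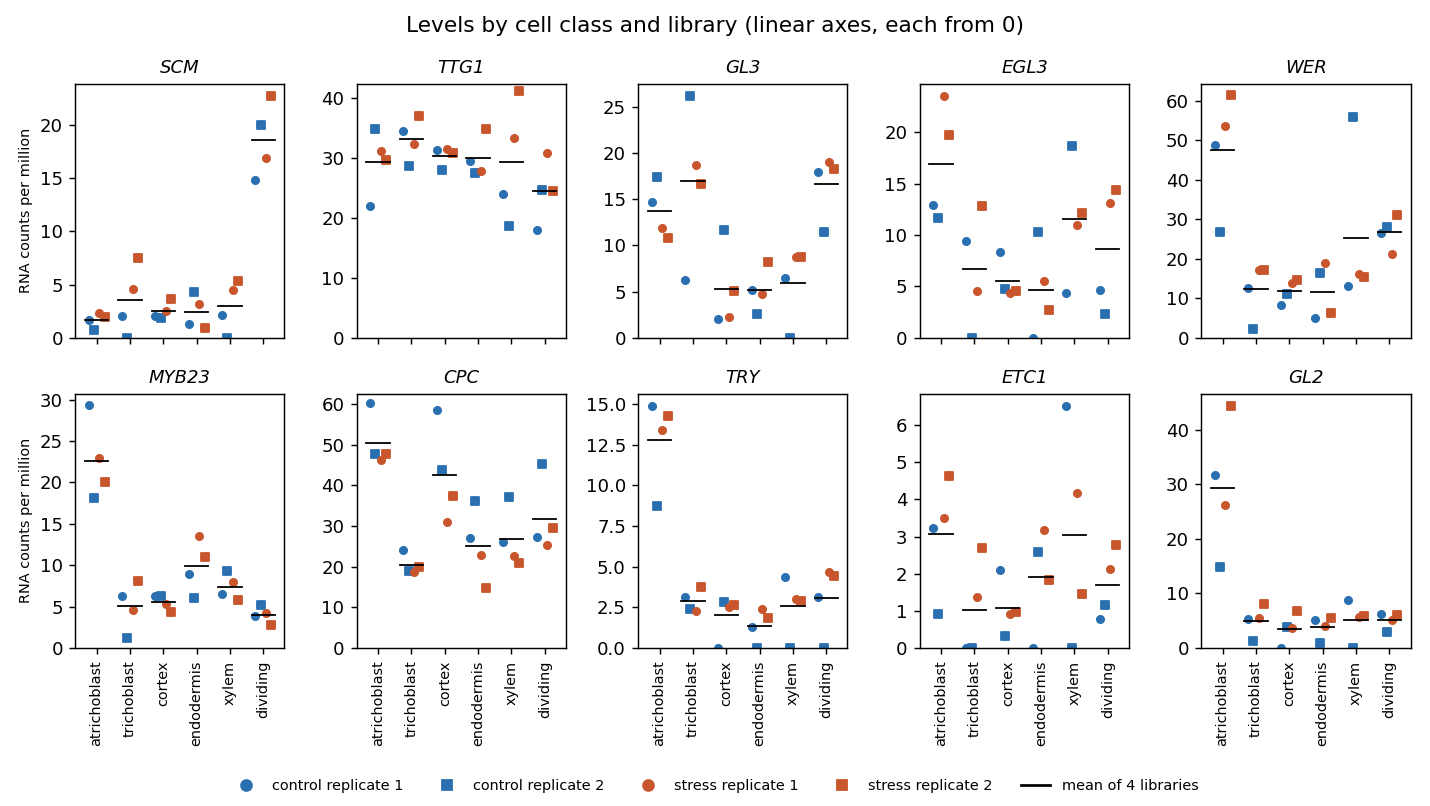
Level in CPM of RNA counts (linear axes from 0) of each regulator in 6 classes, with 1 point per library (blue control, red stress, circle replicate 1, square replicate 2) and a bar at the mean of 4 libraries. GL2, MYB23 and TRY stand out in atrichoblast-like nuclei, SCM in dividing-like nuclei, and TTG1 lies between 18.0 and 41.2 in every class and library.

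Clusters without a name added to the picture. Cluster 4 (2652 nuclei, 542 to 724 per library, led by ATGSTF13 and TOM7-2) held 37.3% of all EGL3 counts, 29.5% of SCM counts, 25.8% of GL3 counts and 25.6% of WER counts, but only 10.8% of GL2 counts. EGL3 was at 20.8, 19.0, 30.9 and 27.1 CPM there in control replicates 1 and 2 and stress replicates 1 and 2. GL2 was at 8.23, 5.53, 3.37 and 8.27 CPM, below each of its atrichoblast-like values. WER was at 43.8, 47.6, 34.3 and 37.6 CPM, inside the range of its atrichoblast-like values. The cluster was given no name, and no test was run on it. Cluster 8 (843 nuclei, led by AT1G50060 and CEL5, with 3 of 9 lateral root cap markers) had the highest pooled level of WER, 67.9 CPM, with 47.9 to 82.2 CPM in the 4 libraries, and GL2 was at 4.36 to 16.4 CPM.

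Genes whose level over the 18 clusters was most like that of 4 regulators were read from counts pooled over libraries, among 12315 genes with at least 10 CPM on average. For GL2 they were AT4G22235, NSP4, SCPL15, BGLU21 and LBD13, with Pearson's r from 0.85 to 0.88. For WER they were AT3G14530, AT2G25980, the arabinogalactan protein gene AGP31, the KANADI-family gene ATS and AT2G17080, with r from 0.92 to 0.97. For CPC they were MAN7, AT4G22230, AT5G44585, AT1G53380 and AT3G44610, with r from 0.66 to 0.71, and so no gene followed CPC closely. For EGL3 they were AT1G79390, AT3G62810, GRX4, MPPalpha and AT2G33840, with r from 0.86 to 0.87. The clusters share libraries and differ in depth, and these values are a description.

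The next comparison asked which regulators changed under osmotic stress in whole libraries. CPC and GL3 fell, and no regulator rose. These 2 of 10 regulators stand beside 9.88% of 20587 genes called, 6.8% higher and 3.07% lower. The median log2 change was -0.55 over the 10 regulators and -0.0027 over all genes. The median over the regulators depended on the controls, at -0.12 without control replicate 1 and -0.70 without control replicate 2. It was -0.25 with the limits on RNA and peak counts and -0.16 without atrichoblast-like nuclei. Without the clusters mostly from 1 library it was -0.62. A whole-library level moves both with the number of nuclei of a type and with RNA per nucleus, and in such sums fewer cells of a type and less RNA per cell cannot be told apart. Scaling mattered too, because without TMM factors the median of all genes lies at 0.20, and each change given here is relative to that shift.

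CPC was at 46.5 and 41.8 CPM in control replicates 1 and 2 and at 27.6 and 28.9 CPM in stress replicates 1 and 2. The groups did not overlap, and the log2 change was -0.84 ± 0.11 (SE, 2 against 2 libraries, adjusted p = 0.0323). A lack of overlap was common, as both stress libraries lay below both controls on TMM-scaled CPM for 31.9% of genes tested. GL3 was at 14.003 and 15.98 CPM against 11.2 and 10.7 CPM, again with no overlap, and changed by -0.66 ± 0.12 (adjusted p = 0.0487). This call is a narrow one, and it was lost without TMM factors (adjusted p = 0.0759), with the replicate block (adjusted p = 0.0803), with the limits on RNA and peak counts (adjusted p = 0.051) and with equal numbers of nuclei (adjusted p = 0.0583). Both calls were lost without stress replicate 1 and without stress replicate 2, where the spread came from the control libraries alone. That both held without either control replicate lends no support, as the spread then came from the closely matched stress libraries alone. Log2 changes in these fits ran from -0.95 to -0.76 for CPC and from -0.74 to -0.59 for GL3. GL3 overlaps the lncRNA AT5G06145 on the other strand by 36 bases.

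**Figure D3:**
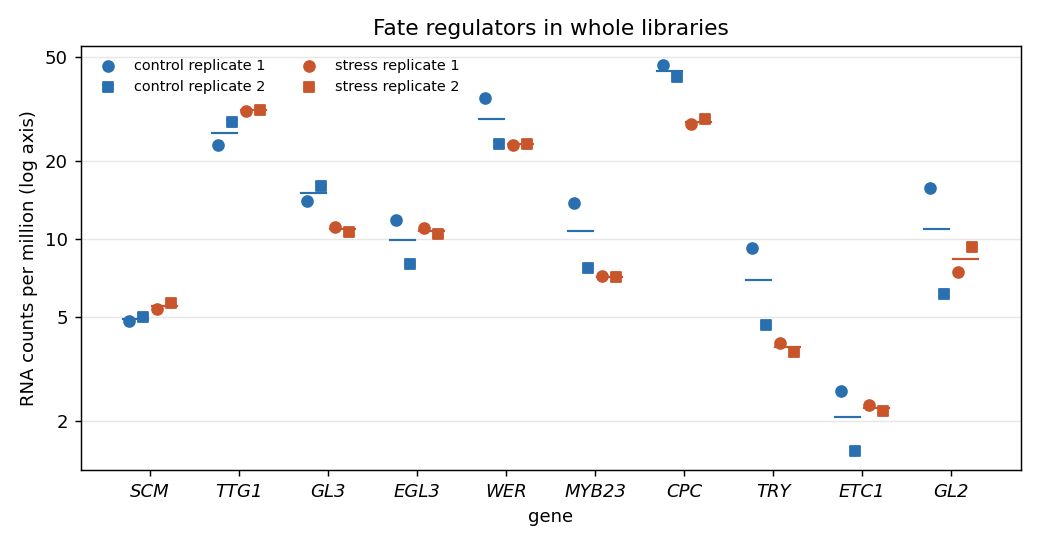
Level of each regulator in whole libraries, in CPM of RNA counts on a log axis, with 1 point per library (blue control, red stress, circle replicate 1, square replicate 2) and a bar at the group mean. CPC and GL3 are lower in both stress libraries, while MYB23, TRY, WER and GL2 are highest in control replicate 1.

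The genes of the hairless cell varied more between the controls than between the groups. WER was at 34.7 and 23.2 CPM in control and at 23.0 and 23.2 CPM in stress (-0.53 ± 0.23, adjusted p = 0.182). MYB23 was at 13.7 and 7.71 CPM against 7.19 and 7.14 CPM (-0.77 ± 0.31, adjusted p = 0.166), and TRY at 9.22 and 4.67 CPM against 4.00 and 3.70 CPM (-1.04 ± 0.37, adjusted p = 0.137). GL2 was at 15.7 and 6.14 CPM against 7.48 and 9.35 CPM (-0.56 ± 0.49, adjusted p = 0.444). For all 4 genes control replicate 1 was the highest library, and for GL2 the stress values lay between those of the controls.

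Control replicate 1 also had the highest share of atrichoblast-like nuclei. It was 27.2% and 9.49% of nuclei in control replicates 1 and 2 and 5.53% and 4.89% in stress replicates 1 and 2, and that class gave 37.1%, 18.0%, 9.12% and 8.19% of the RNA counts. These shares depend on the limits on nuclei. With nuclei limited on RNA and peak counts and clustered anew, the class held 65 of 1480 and 126 of 4767 nuclei in control replicates 1 and 2. In stress replicates 1 and 2 it then held 187 of 6564 and 167 of 5575. The summed level of the 15 atrichoblast markers was 994.6 and 747.3 CPM against 710.0 and 721.3 CPM, with 1 marker called higher, 1 lower and none at 0. With the atrichoblast-like nuclei left out, a choice made after seeing the data, MYB23 was at 4.52 and 5.41 CPM against 5.602 and 5.99 CPM and GL2 at 6.24 and 4.23 CPM against 5.602 and 6.23 CPM, log2 changes of 0.05 and 0.04. WER and TRY were still lower in both stress libraries there, WER at 26.4 and 22.4 CPM against 19.9 and 19.8 CPM (-0.45, adjusted p = 0.0773) and TRY at 5.88 and 3.78 CPM against 3.06 and 2.75 CPM (-0.86, adjusted p = 0.108). CPC changed by -0.74 there and was still called (adjusted p = 0.0327), and GL3 by -0.60 (adjusted p = 0.0622). Without the 4 clusters mostly from 1 library, 5 regulators were called lower, CPC, GL3, MYB23, TRY and WER. In that setting 40.5% of 20286 genes were called, 21.4% higher and 19.1% lower.

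None of the remaining regulators passed the test. TTG1 was at 22.9 and 28.2 CPM in control and 31.1 and 31.2 CPM in stress (0.09 ± 0.13, adjusted p = 0.669), and SCM at 4.84 and 5.00 CPM against 5.38 and 5.65 CPM (-0.04 ± 0.14, adjusted p = 0.872). For both, the stress libraries were the higher ones in CPM, and TMM scaling brought the fitted change near 0. EGL3 was at 11.8 and 8.01 CPM against 11.1 and 10.5 CPM (-0.08 ± 0.23, adjusted p = 0.834). ETC1, the scarcest, had 46 and 46 counts in control and 87 and 69 in stress (-0.06 ± 0.32, adjusted p = 0.912). For SCM, EGL3 and ETC1 the sign turned positive without TMM factors, at 0.16, 0.13 and 0.14.

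Among the other fate pathway genes, 11 of 18 were tested, 2 rose and none fell, and of the 6 hair bHLH genes 1 fell and none rose. Over all genes tested in whole libraries, 6.8% were called higher and 3.07% lower. The 2 pathway genes called higher became 1 when nuclei were also limited on peak counts, and stayed 2 with DESeq2 and with the replicate block. The 1 hair bHLH gene called lower became 0 with that added limit, 0 with the replicate block and 2 with DESeq2. ZFP5 was at 2.62 and 2.47 CPM in control and 12.5 and 12.4 CPM in stress (2.09 ± 0.14, adjusted p = 0.0177). JKD was at 18.3 and 21.5 CPM against 44.2 and 43.9 CPM (0.95 ± 0.12, adjusted p = 0.0289). For both genes every stress value lay above every control value, which on TMM-scaled CPM held for 36.5% of all genes tested. RHD6 was at 24.2 and 26.8 CPM against 18.8 and 18.0 CPM (-0.67 ± 0.11, adjusted p = 0.0413), and with the limits on RNA and peak counts it changed by -0.13 (adjusted p = 0.495).

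Whether the regulators changed inside a class was asked in 6 classes, each fitted alone. In atrichoblast-like nuclei 0 of 9 regulators tested were called, where 11.3% of genes were (6.72% higher, 4.63% lower), and 3 had an unadjusted p under 0.05. In trichoblast-like nuclei 0 of 5 were called (9.15% of genes, 3.57% higher and 5.58% lower) and none had an unadjusted p under 0.05. In cortex-like nuclei 0 of 7 were called (12.5% of genes, 5.22% higher and 7.26% lower), and 2 had an unadjusted p under 0.05. In endodermis-like nuclei 0 of 4 were called (6.25% of genes, 4.07% higher and 2.18% lower), and 1 had an unadjusted p under 0.05. In xylem-like nuclei 0 of 6 were called (1.62% of genes, 0.296% higher and 1.32% lower), and none had an unadjusted p under 0.05. In dividing-like nuclei 1 of 7 was called higher and none lower (6.59% of genes, 3.81% higher and 2.78% lower). Over all genes tested, an unadjusted p under 0.05 was held by 28.8% in atrichoblast-like, 27.4% in trichoblast-like and 26.8% in cortex-like nuclei. In endodermis-like and xylem-like nuclei that share was 24.3% and 13.4%. DESeq2 called none of the regulators in any of the 6 classes. Different clusters make up these classes in the groups, as cluster 2 belongs to control replicate 1 and cluster 17 holds most cortex-like nuclei of control replicate 2.

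CPC had a negative log2 change in all 6 classes, also without TMM factors (-0.74 to -0.16) and with DESeq2, and none passed the test. It was -0.45 ± 0.18 in atrichoblast-like (60.3 and 47.8 CPM in control against 46.2 and 47.8 CPM in stress), -0.42 ± 0.30 in trichoblast-like (24.1 and 19.0 against 18.7 and 19.8 CPM) and -0.75 ± 0.22 in cortex-like nuclei (58.5 and 43.7 against 31.0 and 37.5 CPM). It was -0.61 ± 0.25 in dividing-like, -0.88 ± 0.33 in endodermis-like and -0.44 ± 0.40 in xylem-like nuclei. Adjusted p-values lay between 0.0663 and 0.696. In CPM the groups overlapped in atrichoblast-like, trichoblast-like and dividing-like nuclei. All these fits use the same libraries, so a shared sign is not repeated evidence. Cluster 10, an unnamed cluster of 4616 nuclei (204 and 168 in control, 2266 and 1978 in stress), gave 15.2% of CPC counts. There CPC was at 49.2 and 48.3 CPM in control, from only 33 and 29 counts, and at 30.7 and 32.5 CPM in stress.

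GL3 changed by -0.74 ± 0.24 in atrichoblast-like nuclei (adjusted p = 0.0917), from 14.7 and 17.4 CPM to 11.9 and 10.8 CPM. Without cluster 2, a choice made after seeing the data, the change was -0.84 ± 0.22 and was called (adjusted p = 0.0374). In cortex-like nuclei GL3 was at 2.09 and 11.6 CPM in control and 2.30 and 5.08 CPM in stress, from 1, 37, 10 and 21 counts. The fitted change of -1.73 ± 0.52 (adjusted p = 0.0678) there turned to 0.55 without control replicate 2, the library of cluster 17. In trichoblast-like nuclei it was -0.07 ± 0.46 and in dividing-like nuclei 0.20 ± 0.31.

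EGL3 was the regulator called in dividing-like nuclei. It gave 6 and 4 counts in control and 31 and 26 counts in stress, which are 4.69 and 2.29 CPM against 13.1 and 14.4 CPM. The log2 change was 1.85 ± 0.44 (adjusted p = 0.0459). The call was lost without control replicate 2, where the change was 1.29, without either stress replicate (1.76 to 1.90), and with the limits on RNA and peak counts, and DESeq2 gave it no adjusted p. In atrichoblast-like nuclei EGL3 was at 12.9 and 11.7 CPM in control and 23.5 and 19.7 CPM in stress (0.57 ± 0.23, adjusted p = 0.154). GL2, the output, was at 31.8 and 14.8 CPM against 26.2 and 44.4 CPM in the same nuclei (0.32 ± 0.40, adjusted p = 0.648), so that the groups overlapped.

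**Figure D4:**
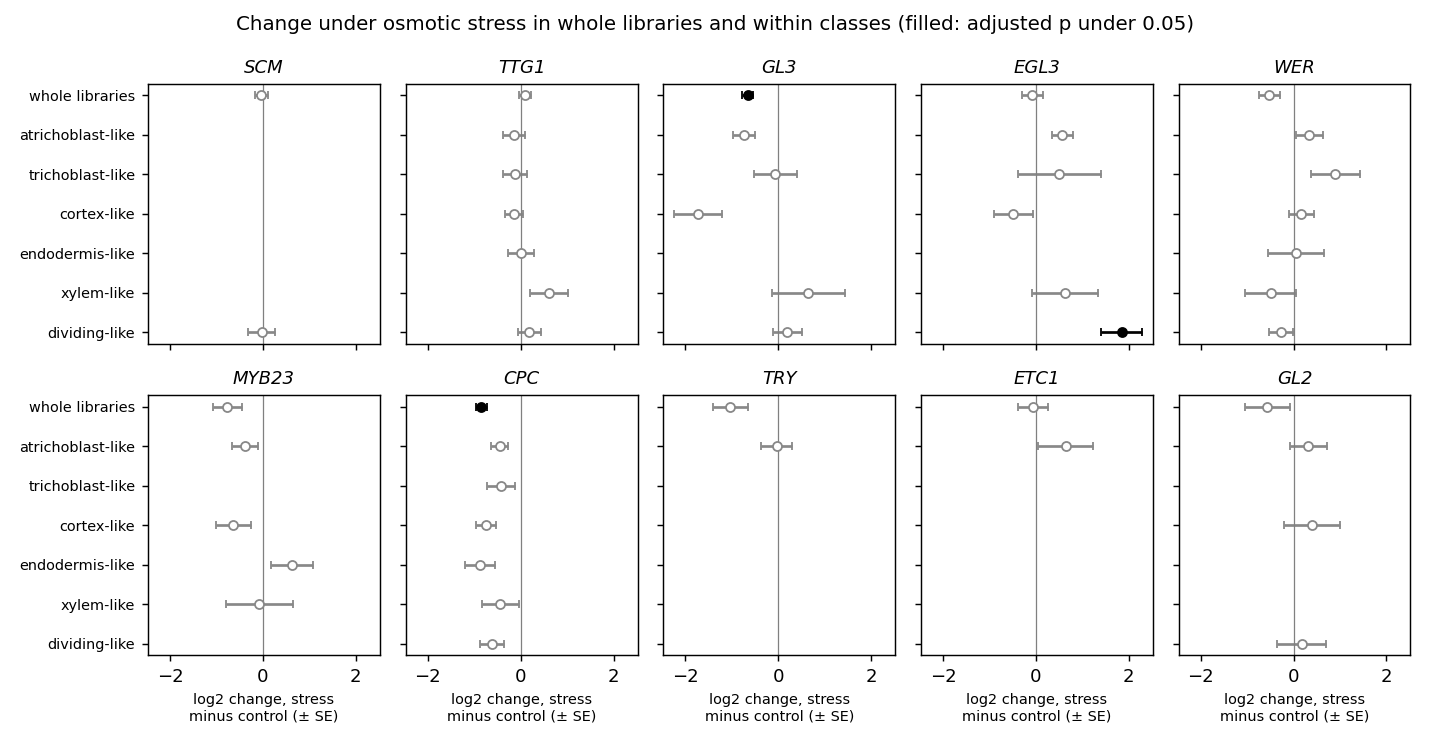
Log2 change of each regulator from control to stress with its SE, in whole libraries and in 6 classes (horizontal axis, log2; filled black points have an adjusted p under 0.05, and rows without a point were too low to test). Filled are CPC and GL3 in whole libraries and EGL3 in dividing-like nuclei, and CPC lies left of 0 in all 7 rows. The rows come from the same libraries and are not independent.

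The stress effect was compared between the epidermal classes by an interaction term. None of 9 regulators differed in its stress effect between atrichoblast-like and trichoblast-like nuclei, where 4.6% of 15704 genes did (4.39% higher, 0.217% lower). None had an unadjusted p under 0.05, where 16.8% of genes did, and DESeq2 called none. For CPC the difference was 0.13 ± 0.33, for WER -0.41 ± 0.46 and for GL2 -0.28 ± 0.64 (atrichoblast-like minus trichoblast-like, log2). Errors of this size leave room for sizeable differences. Of the hair bHLH genes, 2 of 5 tested were called lower under stress in trichoblast-like nuclei and 1 of 6 in atrichoblast-like nuclei, none was called higher, and 5.58% and 4.63% of all genes were called lower there. These genes are named after their values were seen. RSL4, which drives hair growth, changed by -1.42 ± 0.31 in trichoblast-like nuclei (288 and 155 CPM in control against 104.6 and 94.2 CPM in stress, adjusted p = 0.0231) and by -1.54 ± 0.24 in atrichoblast-like nuclei (adjusted p = 0.0124). RSL2 changed by -1.21 ± 0.27 in trichoblast-like nuclei (adjusted p = 0.0277). Positive values that did not pass the test were 0.84 ± 0.33 for LRL2 in trichoblast-like nuclei (adjusted p = 0.143) and 1.17 ± 0.35 for RSL1 in atrichoblast-like nuclei (adjusted p = 0.0765).

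Chromatin at the genes was read from peaks that were called in each library alone. At the 10 genes, counted with 2000 bases before the start, 22 regions were found, and 9 of them, at CPC, GL3, TRY, WER, TTG1 and SCM, were called in all 4 libraries and could be tested. None of the 9 was called under stress (0.213% of 18340 regions called, 0.147% higher and 0.0654% lower). An unadjusted p under 0.05 was held by 0 of the 9 and by 18.4% of all regions, and DESeq2 called 0 of the 9. Log2 changes ran from -0.14 to 0.33. The largest was at the start of TRY (chromosome 5, 21582340 to 21583123), with 179 and 310 counts in control and 561 and 459 in stress, 0.33 ± 0.14 (adjusted p = 0.28). The region around position -1639 of CPC (chromosome 2, 19051524 to 19052493), the most accessible of the 22, had 1774 and 3980 counts in control and 4815 and 4200 in stress, a change of -0.04 ± 0.13 after scaling, beside the fall of CPC RNA.

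The regions at the starts of GL2 and MYB23, from which the printed sequences come, were called in both stress libraries and in neither control. That at GL2 (chromosome 1, 30036292 to 30037038) held 1549 and 1316 counts and that at MYB23 (chromosome 5, 16127306 to 16128089) held 627 and 522. The region over the start of CPC (chromosome 2, 19050023 to 19050972) held 1909 counts in control replicate 2 and 2631 and 2154 in the stress libraries, and was not called in control replicate 1. Depth moved with this, as peak counts per library were 11711639 and 28636344 in control and 35787184 and 31565583 in stress. Its part in which regions were called was not tested.

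Within a library the classes could be set side by side, as a description without a test. The MYB23 region was at 31.1 and 38.6 peak CPM (peak counts scaled to the total of the class in that library) in atrichoblast-like nuclei of stress replicates 1 and 2, and 15.8 and 18.9 in trichoblast-like nuclei, ratios of 1.97 and 2.04. The GL2 region was at 57.0 and 42.1 peak CPM against 34.9 and 38.7, ratios of 1.63 and 1.09. The region inside TRY around position 1068 from its start (chromosome 5, 21583218 to 21584146) was more accessible in atrichoblast-like nuclei in 4 of 4 libraries, with ratios of 3.15, 5.02, 1.21 and 4.49, from 32, 40, 42 and 43 counts against 4, 4, 39 and 10. So was the region around position -2142 of GL3 (1.34, 1.45, 1.47 and 1.93), a gene whose RNA difference was -0.30. At the region around position -2372 of WER, whose RNA difference was 1.94, the ratios were 0.81, 1.57, 1.57 and 1.06. At the CPC region around position -1639 the ratios were 0.66, 1.02, 0.88 and 0.92. The class difference in RNA at GL2 and CPC, 2.51 and 1.30 on the log2 scale, stands beside these ratios, and RNA and accessibility were not tested against each other.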

How the data were processed

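Nuclei of Col-0 root tips were measured in 4 multiome libraries, and the control and stress groups were taken from the sample titles. Per the labels, the authors ran Cell Ranger ARC 2.0.2 against TAIR10, and they deposited raw counts of RNA molecules per gene and of cut sites per peak, called in each library alone. The deposited barcodes were 3431 to 7827 per library, and the study's limits on nuclei had not been applied to them. Barcodes with RNA counts over 1000 and under 25000 were kept, the RNA limits of the study. Its limits on peak counts were left for an alternative. Doublets were kept.

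RNA counts were summed per library, or per library and class, and compared in edgeR 4.0.16 (R 4.3.3) by its quasi-likelihood test, with TMM scaling, filterByExpr and Benjamini-Hochberg adjustment over all genes tested. The SE is the size of the log2 change divided by the square root of F. Nuclei were clustered with scanpy 1.11.5 and leidenalg 0.10.2 on 2000 variable genes, 30 principal components, 20 neighbours and resolution 0.6, without the 10 regulators and the 24 genes of the other lists. A cluster was named from marker lists where at least 3 markers and 20% of a list were seen in 10% of its nuclei at over 2 times the level elsewhere, with a lead of 1.5 over the next list. A class was tested where no library had fewer than 20 of its nuclei, and other clusters keep a number. Peaks over 20 and under 10000 bases wide were merged with bedtools 2.31.1 where they overlapped by 1 base, and regions called in all 4 libraries were tested in the same way. The tests were run on simulated counts with large changes and the same spread in every library. In the data the controls spread more than the stress libraries, so that check does not bear on the calls made here. Motifs were searched in TAIR10.1, where all 32548 matched gene starts lay within 50 bases of the gene of that name.

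The rule for naming genes took all 10 regulators, the genes of the other lists past the threshold in whole libraries, and for GL2, WER, CPC and EGL3 the 5 genes most like each over clusters. Other list genes named within classes were chosen after their values were seen. The regulators and the lists were chosen with earlier results of these data known. Alternatives were DESeq2 1.42.0, other scaling, filters, limits on nuclei, resolutions, a replicate block and leaving out each library.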

Additional observations from a re-analysis of the deposited data

Results flagged for a closer look

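Some regulators had log2 changes of opposite sign in different classes, with both stress libraries on the same side of both control libraries in each on TMM-scaled CPM. For TTG1 in cortex-like nuclei this held only after that scaling, as its unscaled values overlapped (31.3 and 27.98 CPM in control, 31.5 and 30.7 CPM in stress). GL3 had a log2 change of -0.74 ± 0.24 in atrichoblast-like and 0.65 ± 0.79 in xylem-like nuclei. The latter rests on 3 and 0 counts in control and 23 and 18 in stress. EGL3 had -0.48 ± 0.41 in cortex-like nuclei (4 and 15 counts in control, 19 and 19 in stress), 0.57 in atrichoblast-like and 1.85 in dividing-like nuclei. MYB23 had -0.64 ± 0.37 in cortex-like and 0.63 ± 0.45 in endodermis-like nuclei. TTG1 had -0.15 ± 0.19 in cortex-like and 0.62 ± 0.41 in xylem-like nuclei, the latter with 11 and 2 counts in control. The differences between these classes were not tested, and of these changes only that of EGL3 in dividing-like nuclei passed the test within its class. In whole libraries, both stress libraries lay below both controls on TMM-scaled CPM for 31.9% of 20587 genes and above them for 36.5%. Such shares were not counted within classes.

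Accessible regions outside the comparison of regions were called in both stress libraries and in neither control. The region around position -28 of MYB23 held 627 and 522 counts in stress replicates 1 and 2, and that around position -291 of GL2 held 1549 and 1316 counts.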

How the results depend on the processing

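Of 10 regulators, 2 were called in whole libraries. The count was 1 with the limits on RNA and peak counts, 1 with the replicate block and 1 with equal numbers of nuclei. The count was 1 without TMM factors, 1 without atrichoblast-like nuclei and 5 without the clusters mostly from 1 library (40.5% of all genes called there). It ran from 0 to 8 when a library was left out. In atrichoblast-like nuclei the count of 0 became 1 without the filter on low counts, 1 at resolution 1.0 and 1 without the heat-shock cluster, and ran from 0 to 6 when a library was left out. In cortex-like nuclei it became 1 without the filter and 1 with nuclei limited on RNA and peak counts, with a range of 0 to 2. In dividing-like nuclei the count of 1 became 0 with DESeq2 and 0 with those limits, with a range of 0 to 2. Leaving out a library gave 0 to 1 in endodermis-like and 0 to 2 in trichoblast-like nuclei, 0 to 1 for regions, and 5 to 7 for the epidermal pair. The 6 calls of that pair, all higher, became 4 higher and 1 lower (GL3) of 6 tested with nuclei limited on RNA and peak counts, and their number and direction stayed the same with DESeq2, without the filter, without TMM factors, at resolution 1.0 and without the heat-shock cluster. With a library left out of a group, its lone partner is assumed to vary like the other group.

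Directions turned for regulators that were not called. In whole libraries MYB23 was at 0.0459 and GL2 at 0.0437 without atrichoblast-like nuclei, ETC1 at 0.0127 with every deposited barcode, 0.0512 without the clusters mostly from 1 library and 0.14 without TMM factors, EGL3 at 0.0665 with the limits on RNA and peak counts and 0.13 without TMM factors, and SCM at 0.16 without TMM factors. When a library was left out, EGL3 ran from -0.37 to 0.24, ETC1 from -0.45 to 0.36, GL2 from -1.14 to 0.25 and TTG1 from -0.0425 to 0.21, and GL3 in cortex-like nuclei from -2.18 to 0.55. The difference of GL3 between the epidermal classes was 0.00339 at resolution 1.0. The causes were not tested.

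The number of all genes called moved more. Against 2033 in whole libraries it was 969 with the limits on RNA and peak counts, 3055 with every barcode, 3439 with DESeq2, 3230 without TMM factors and 8212 without the clusters mostly from 1 library, and 0 to 12744 when a library was left out. Against 39 regions it was 5 with those limits, 544 with DESeq2 and 108 with the replicate block, and 7 to 2581. With DESeq2, atrichoblast-like, cortex-like, dividing-like, endodermis-like, trichoblast-like and xylem-like nuclei gave 1135, 946, 438, 364, 718 and 98 genes against 1810, 2085, 912, 759, 1190 and 224, and the interaction 273 against 723. Without the filter the atrichoblast-like, dividing-like, endodermis-like, trichoblast-like and xylem-like counts were 3401, 2103, 1783, 2008 and 675. At resolution 1.0 the atrichoblast-like, cortex-like and interaction counts were 2985, 1286 and 2205. With nuclei limited on RNA and peak counts the atrichoblast-like and dividing-like counts were 437 and 275, and without the heat-shock cluster the first was 2766. The replicate block gave 1354 in endodermis-like and 57 in xylem-like nuclei. When a library was left out, these counts ran from 32 to 5717, 370 to 6696, 27 to 2793, 170 to 2813, 419 to 2947 and 71 to 1091 in the 6 classes in the order above, and from 97 to 1859 for the interaction. Endodermis-like and xylem-like nuclei could not be fitted at resolution 1.0 or with nuclei limited on both counts, as no such class had enough nuclei in every library.

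Same-numbered replicates had deviations correlated at 0.108 (17836 genes), which 2 pairs are too few to read as pairing, so the replicate block is only an alternative. Depth limits ETC1, TRY and SCM most, with 46 to 203 counts per library. With 2 libraries per group, changes of TRY, MYB23 or GL2 of the size fitted here could not be told from the spread of the controls.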
